A study of Mus musculus with 7 samples.

Results

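The first and last serial sections of the 2 Ctr muscles were compared in transcriptome data from tibialis anterior, the main muscle at the front of the mouse lower leg. Sections with under 1000 counts, or with under 20% of the median over their muscle, were left out, and 116 of 146 Ctr sections remained. Kept sections were ordered by the number in their column name and divided into 5 consecutive bins, so that the first and the last bin each held about 20% of the kept sections. The comparison rests on 47 sections of the 525 in the series, with 13 in the first and 12 in the last bin of Ctr 1 and 11 in each bin of Ctr 2. The choice used section order and totals only, and no gene's level. Each bin was added up per muscle, and the 4 sums were compared with the muscle as a block.

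The series holds 2 WT, 2 Ctr and 3 DMD muscles, and its title concerns Duchenne muscular dystrophy, the muscle disease caused by loss of dystrophin. Column names carry pax7 for WT, hDMD for Ctr and mdx for DMD, and the labels used here explain none of these names and give no strain, age, agent or transgene promoter. All 3 groups share the tissue and the protocol. Whether the muscles of a group were taken from different animals is not stated, so the p-values measure only the spread between these samples, which may be technical. The labels also do not say which anatomical end of a muscle comes first, so "first" and "last" refer to section number alone. Each section carries a barcode of its own, and position and barcode cannot be told apart.

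A skeletal muscle is not uniform along its length. Fibres attach to tendon at their ends through myotendinous junctions, nerves and arteries enter at particular levels and branch, and the mix of fibre types changes from one region to another. Fast type 2B fibres rely on glycolysis and large calcium stores, while type 2A, type 2X and slow fibres hold more mitochondria, burn more fatty acid and are better supplied with capillaries. Red cells in the vessels bring globin transcripts with them.

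The first bin held 3343498 counts in Ctr 1 and 1745203 in Ctr 2, and the last bin held 3059187 and 2980055, so depth was higher at opposite ends in the 2 muscles. Defining fibre genes were present at both ends: Myh4, the type 2B myosin, stood in Ctr 1 and Ctr 2 at 10020 and 12300 CPM (counts scaled to a common library total) in the first and at 13020 and 16750 CPM in the last bins. Human DMD sequence was counted in every bin, at 17.1 and 26.1 CPM in the first and 17.7 and 22.2 CPM in the last bins. Mouse Dmd stood at 8.40 and 16.9 CPM in the first and 6.54 and 11.7 CPM in the last bins. Spike-in RNA, added in the laboratory, moved in opposite directions, from 78.1 to 157 CPM in Ctr 1 and from 198 to 146 CPM in Ctr 2. The share of counts from mitochondrially encoded genes was higher in the first bins, at 32.99% against 27.5% in Ctr 1 and 29.8% against 28.5% in Ctr 2. Section profiles were compared on a log scale over 1316 genes in Ctr 1 and 1191 in Ctr 2, without mitochondrially encoded genes. Each gene was first centred and scaled over the kept sections of its muscle. The correlations therefore compare departures from the muscle's own mean, not whole profiles. Neighbouring sections resembled each other more than distant ones by this measure. The mean Pearson correlation was 0.074 between neighbours and -0.109 between sections 40 apart in Ctr 1, and 0.099 and -0.113 in Ctr 2.

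Of 7773 genes that passed the count filter, 186 (2.39%) differed between the ends at an adjusted p below 0.05, by edgeR's quasi-likelihood test with Benjamini-Hochberg adjustment. Of these, 108 (1.39%) were higher in the first and 78 (1%) in the last sections. Globins, cardiac actin, the type 2A and 2X myosins and the myelin gene Mbp were higher at the first than at the last end. So were 3 of 7 tested smooth muscle and pericyte genes and 5 of 12 tested fatty acid genes. Mss51, Tmem100, Car3, several fast fibre genes and 2 collagens were higher at the last end. The median log2 difference over all genes, first minus last, was 0.0032. The sign was the same in both muscles for 184 of the 186, against 4515 of all 7773 genes (58.1%), and the exceptions were Mt2 and Plin5. The fit left 1 residual degree of freedom, and a fit over all 7 muscles called 9 genes (0.0931%), namely Actc1, Tent5c, Ldhb, Lpl, Pi16, Mbp and Sfrp5 at the first end and Mss51 and Tmem100 at the last.

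**Figure D1:**
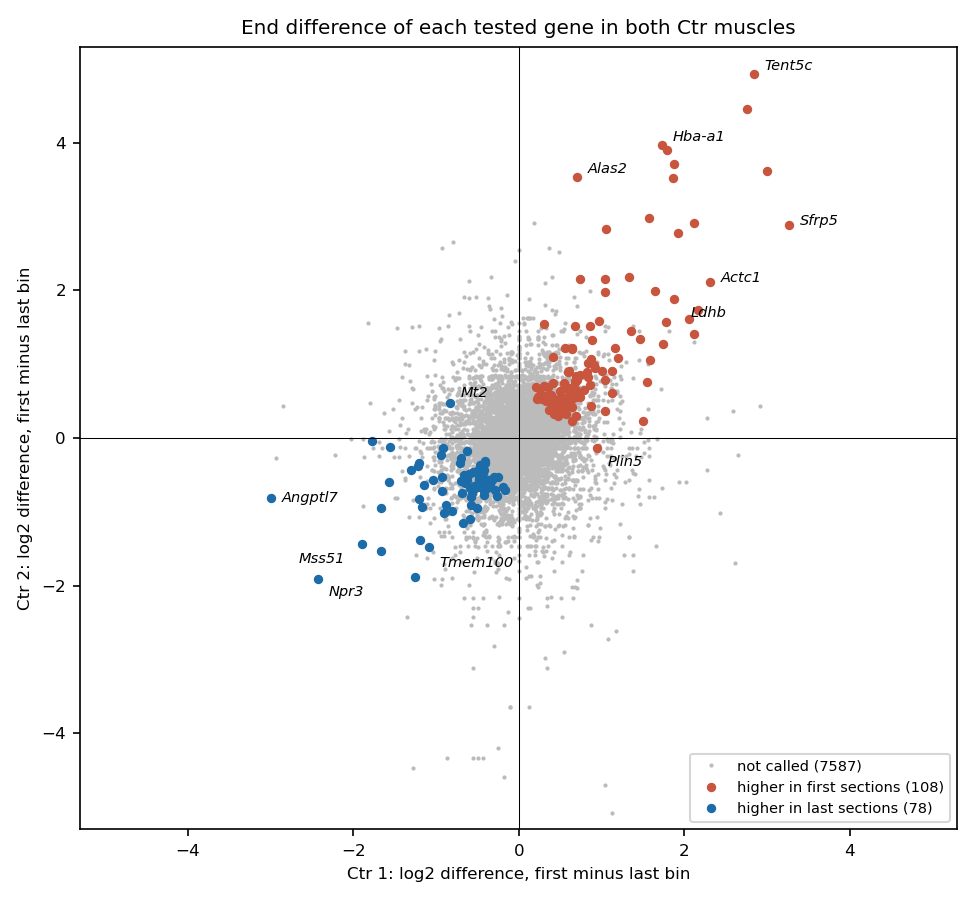
Each point is 1 tested gene, placed by its log2 difference (first minus last bin) in Ctr 1 on the x axis and in Ctr 2 on the y axis. Red points are the 108 genes called higher in the first and blue points the 78 called higher in the last sections, and grey points did not pass. Called genes lie where both axes have the same sign, apart from Mt2 and Plin5, and 1 gene lies outside the axes.

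Sections between the ends, which the comparison did not use, were compared as well. They adjoin the end bins in the same muscles, and neighbouring sections resembled each other, so their values are not independent of the ends. Bin 2 against bin 4 called 25 of 7436 genes (0.336%), and 23 of them were among the 186. Of 181 called genes that could be measured there, 170 (93.9%) had the same direction as at the ends, against 4226 of 7226 genes overall (58.5%). Over single sections, the values at the 2 ends did not overlap for 9 genes in Ctr 1 (0.116% of all tested), for 22 in Ctr 2 (0.283%) and for 5 in both (0.0643%), namely Hba-a1, Hba-a2, Hbb-bs, Hbb-bt and Actc1.

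**Figure D2:**
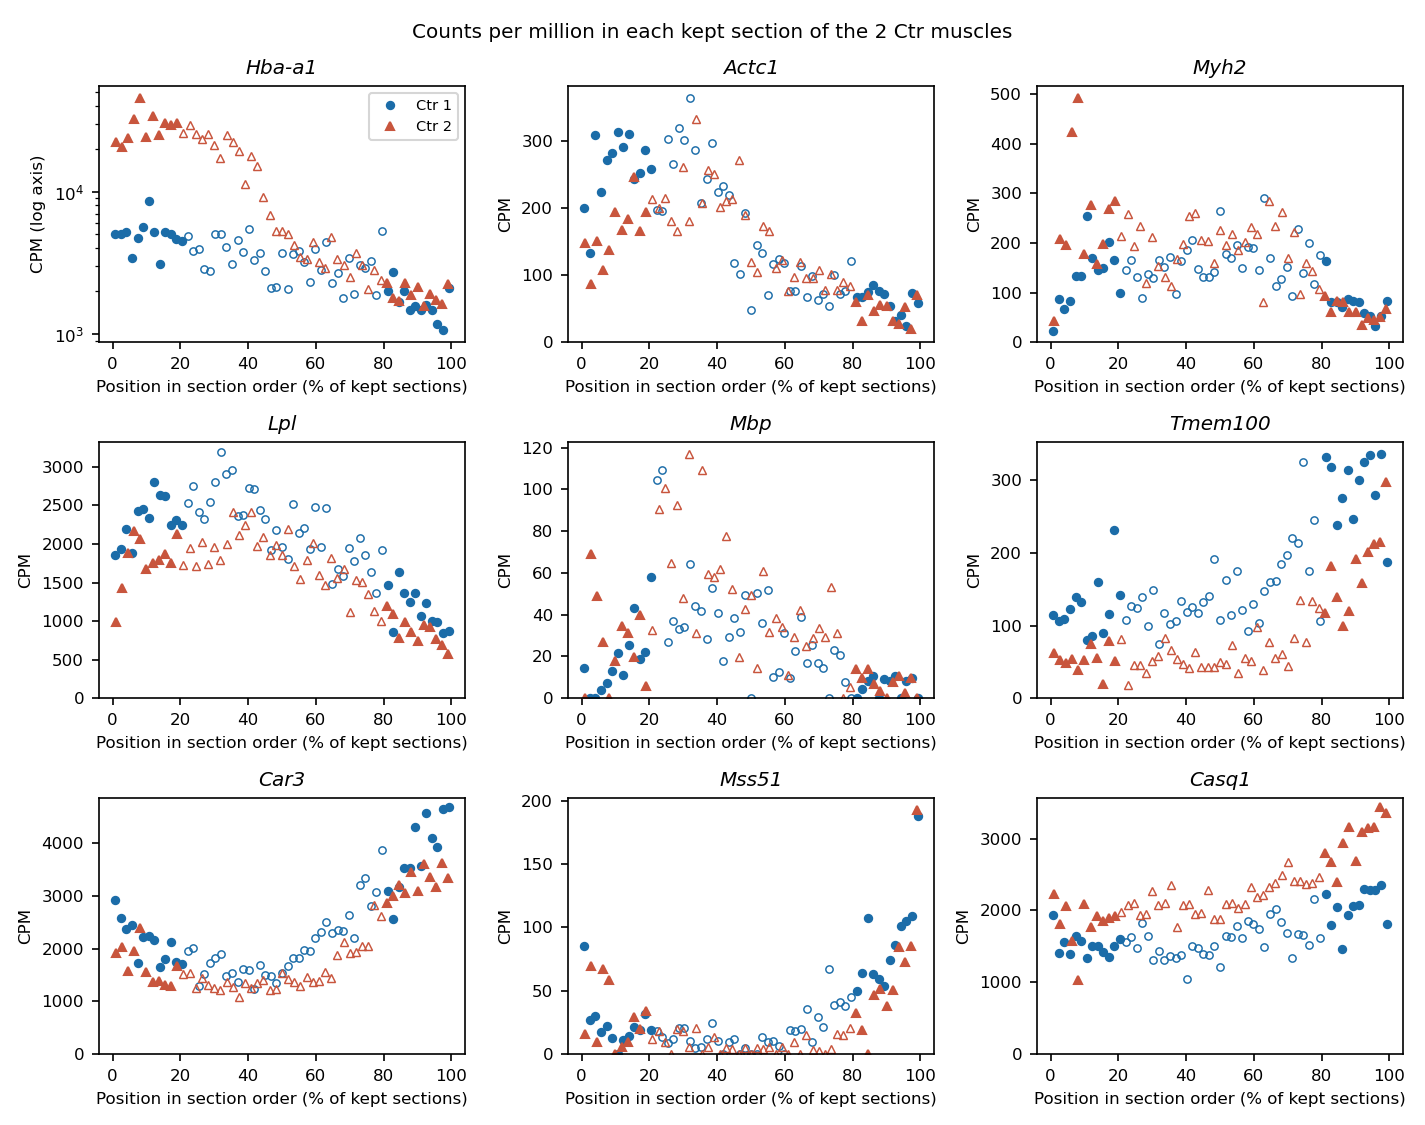
Level of 9 genes (y axis, CPM without further scaling) in every kept section of Ctr 1 (blue circles) and Ctr 2 (red triangles), placed by position in section order on the x axis. Filled points are the sections of the first and last bins and open points those between. The panel of Hba-a1 has a log axis, and all others start at 0. Mss51 was at its highest in the last kept section of both muscles, at 188 and 192.5 CPM, and Mbp was at its highest in bin 2 of both.

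Blood genes showed the largest end difference of the lists. All 5 listed genes were called higher in the first sections, with a median log2 difference of 2.8 against 0.0032 over all genes. Of these, 4 encode the chains of adult haemoglobin, which carries oxygen in red cells, and Alas2 encodes the erythroid enzyme that starts haem synthesis. Their promoters, 250 bases before to 50 bases after the start of transcription in RefSeq (GRCm38.p6), are shown because these genes moved together and are read in the same cell lineage. Capitals mark GATAA, the core letters bound by GATA factors, and CCACCC, the core letters bound by erythroid Kruppel-like factors, on either strand, so that matches on the other strand read TTATC and GGGTGG. The windows, in order, are chr11:32283422-32283721 on the plus strand, chr7:103827879-103828178 on the minus strand, chr7:103813874-103814173 on the minus strand and chrX:150547167-150547466 on the plus strand.
Hba-a1: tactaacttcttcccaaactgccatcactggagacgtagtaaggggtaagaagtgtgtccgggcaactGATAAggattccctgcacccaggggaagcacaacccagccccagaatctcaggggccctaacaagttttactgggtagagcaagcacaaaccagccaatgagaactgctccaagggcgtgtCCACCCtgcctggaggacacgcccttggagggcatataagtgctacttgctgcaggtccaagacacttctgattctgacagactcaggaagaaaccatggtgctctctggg
Hbb-bs: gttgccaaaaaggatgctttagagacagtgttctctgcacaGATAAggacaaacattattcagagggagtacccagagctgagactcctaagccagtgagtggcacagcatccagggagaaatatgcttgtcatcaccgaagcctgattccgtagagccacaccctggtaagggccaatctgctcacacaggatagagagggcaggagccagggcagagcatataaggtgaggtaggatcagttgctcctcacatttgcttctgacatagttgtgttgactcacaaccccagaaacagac
Hbb-bt: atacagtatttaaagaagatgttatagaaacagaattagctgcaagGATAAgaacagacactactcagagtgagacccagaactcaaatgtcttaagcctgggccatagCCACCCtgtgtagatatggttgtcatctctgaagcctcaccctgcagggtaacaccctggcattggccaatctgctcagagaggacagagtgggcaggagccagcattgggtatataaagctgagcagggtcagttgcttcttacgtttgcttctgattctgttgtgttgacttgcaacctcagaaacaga
Alas2: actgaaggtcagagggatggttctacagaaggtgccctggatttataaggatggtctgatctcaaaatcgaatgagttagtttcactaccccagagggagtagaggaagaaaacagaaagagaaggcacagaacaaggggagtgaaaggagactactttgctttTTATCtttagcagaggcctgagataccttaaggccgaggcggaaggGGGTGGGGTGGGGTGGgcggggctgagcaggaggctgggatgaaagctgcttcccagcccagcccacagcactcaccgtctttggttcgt
GATAA stood once in each of the 4 windows and occurs in 25.4% of 32851 RefSeq promoter windows of this length. CCACCC was found in Hba-a1 and Hbb-bt, and 3 times with overlap in Alas2, and occurs in 31.5% of all windows. Other CACCC forms were not marked, such as ccacaccc in the Hbb-bs window. The Hba-a2 window is shifted by 3 bases and was identical to that of Hba-a1 over the 297 shared bases. A match describes the letters only and is not evidence of binding.

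Hba-a1 (GRCm38 chr11:32283511-32284465) stood at 4768 CPM in the first and 1431 CPM in the last bin of Ctr 1, and at 30510 and 1953 CPM in Ctr 2. These CPM are scaled by the trimmed mean of M-values (TMM), as are all levels below except those of single sections and sums over a list. Over sections, Hba-a1 ran from 3118 to 8646 CPM (median 5055) in the first bin of Ctr 1 and from 1060 to 2748 CPM (median 1585) in its last. In Ctr 2 it ran from 20730 to 45670 CPM (median 29180) in the first and from 1566 to 2298 CPM (median 1894) in the last bin. The ranges did not overlap in either muscle, and the last bins of the 2 muscles were close while the first bins were not. The fitted log2 difference was 2.85 ± 0.28, or 7.22-fold (adjusted p = 3.08e-07, edgeR), where ± is an approximate standard error here and below. The muscles differed in its size, with 1.74 in Ctr 1 and 3.96 in Ctr 2.

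In the other blood genes, too, the first bin stood above the last in both muscles. Hba-a2 (chr11:32296489-32297298) had log2 differences of 1.80 and 3.90 in Ctr 1 and Ctr 2, but its reads and those of Hba-a1 cannot be fully separated because the copies are nearly identical. Hbb-bs (chr7:103826534-103828096) stood at 1343 and 366 CPM in Ctr 1 and at 6510 and 497 CPM in Ctr 2, first against last (log2 2.80 ± 0.24, adjusted p = 2.86e-08, edgeR). Hbb-bt (chr7:103812524-103813996) stood at 295 and 81.3 CPM in Ctr 1 and at 1472 and 127 CPM in Ctr 2 (log2 2.76 ± 0.20, adjusted p = 2.37e-09, edgeR). Alas2 was low in Ctr 1, at 9.89 and 5.98 CPM, and fell from 57.8 to 4.83 CPM in Ctr 2 (log2 2.40 ± 0.36, adjusted p = 0.00017, edgeR). The summed level of the 5 genes was 9668, 8142, 6248, 5529 and 3091 CPM over bins 1 to 5 of Ctr 1, a gradual decline. In Ctr 2 it was 53030, 42070, 14060, 6125 and 3785 CPM, with the steepest step between bins 2 and 3. Bin 2 against bin 4 gave a log2 difference of 1.78 for Hba-a1 (adjusted p = 2.9e-05, edgeR). More red cells and more RNA per red cell cannot be told apart in these sums, and the same holds for every cell type below. With the globin genes left out of the library size, a setting chosen after seeing the data, 191 genes were called, 181 of them among the 186.

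Ube2l6 (chr2:84798828-84810335), a conjugating enzyme for ubiquitin and the ubiquitin-like protein ISG15, rose from 5.98 CPM in the last to 12.6 CPM in the first bin of Ctr 1 and from 7.94 to 57.8 CPM in Ctr 2. Its log2 difference was 2.18 ± 0.29 (adjusted p = 3.34e-05, edgeR), and section values overlapped in both muscles. As with the globins, Ctr 2 showed the larger difference, 2.84 against 1.05.

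Actc1 (chr2:114047282-114053548), the cardiac form of sarcomeric actin, which skeletal muscle makes mainly before birth and during repair, had the smallest p of all genes. It stood at 265 CPM in the first and 53.2 CPM in the last bin of Ctr 1, and at 188.5 and 43.5 CPM in Ctr 2. Over sections it ran from 133 to 313 CPM (median 271) at the first and from 24.3 to 84.7 CPM (median 67.2) at the last end of Ctr 1. In Ctr 2 the ranges were 86.4 to 246 CPM (median 166) and 19.02 to 70 CPM (median 51.8). Every first section lay above every last section of its muscle. The log2 difference was 2.23 ± 0.11, or 4.69-fold (adjusted p = 5.76e-13, edgeR), and the muscles gave 2.31 and 2.11. Its highest single sections lay in bin 2, at 364 CPM in Ctr 1 and 332 CPM in Ctr 2, and bin 2 exceeded bin 4 by 1.62 (adjusted p = 8.18e-12, edgeR). Of the other 9 genes on the list of developmental and regenerating fibres, none was called and 6 fell below the count filter, with Mymx and Chrng at 0 counts in all 4 sums. The list's median was 0.769.

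All 4 genes on the list of type 2A and 2X fibres were called higher in the first sections, with a median log2 difference of 0.906. Of them, only Myh2 and Myh1 encode the myosins of these fibres. Myh2 (chr11:67171027-67197517), the type 2A myosin, stood at 134 and 64.8 CPM in Ctr 1 and at 247.5 and 62.8 CPM in Ctr 2, first against last. Its first sections ranged widely, from 22.6 to 253.5 CPM in Ctr 1 and from 42.6 to 493 CPM in Ctr 2, and overlapped the last sections, which reached 163 and 93.5 CPM. The log2 difference was 1.498 ± 0.14 (adjusted p = 1.38e-07, edgeR). The level did not slope evenly: bins 1 to 4 of Ctr 1 stood at 134, 137.5, 161 and 140.5 CPM and bin 5 at 65.4 CPM, and bins 2 and 4 differed by 0.02 (adjusted p = 0.985, edgeR). Csrp3 (chr7:48830398-48848033), a Z-disc protein, stood at 124 and 67.5 CPM in Ctr 1 and at 90.5 and 42.8 CPM in Ctr 2 (log2 0.96 ± 0.12, adjusted p = 1.3e-05, edgeR). Myh1, the type 2X myosin, and Actn2, the alpha-actinin of all fibre types, had log2 differences of 0.86 (adjusted p = 1.28e-05, edgeR) and 0.73 (adjusted p = 0.000253, edgeR). The summed level of the list dropped between bins 4 and 5, from 1344 to 735 CPM in Ctr 1 and from 1677 to 878 CPM in Ctr 2.

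Of 8 tested slow fibre genes, 3 were called higher in the first sections and 5 did not pass, with a median of 0.156. Casq2 (chr3:102086415-102146514), the calcium store protein of slow and cardiac muscle, stood at 19.2 and 6.27 CPM in Ctr 1 and at 23.9 and 11.4 CPM in Ctr 2 (log2 1.33 ± 0.25, adjusted p = 0.00195, edgeR). Its span overlaps 2 other annotated genes on the same strand. Myoz2 (chr3:123006206-123035015), a Z-disc protein of slow fibres, stood at 20.7 and 12.8 CPM in Ctr 1 and at 32.04 and 11.04 CPM in Ctr 2 (log2 1.07 ± 0.23, adjusted p = 0.00882, edgeR). Between bins 2 and 4 their log2 differences were -0.04 and -0.01. Myl3, the ventricular and slow light chain, had a log2 difference of 0.72 (adjusted p = 0.0312, edgeR). The slow myosin Myh7 had 0, 0.11, 2.17 and 7 counts in the 4 sums and was not tested. Tnnc1 went opposite ways, with log2 differences of 2.43 in Ctr 1 and -1.02 in Ctr 2, and Myl2 gave 0.52 and -1.32.

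Of 10 tested genes of type 2B and fast fibres, 3 were called higher in the last sections and 7 did not pass. The list's median was -0.197, and 9 of the 10 were negative in both muscles, against 2178 of all 7773 genes. Mylk2 (chr2:152911352-152923068), the skeletal myosin light chain kinase, stood at 75.2 CPM in the first and 118 CPM in the last bin of Ctr 1, and at 62.8 and 95.9 CPM in Ctr 2. Its log2 difference was -0.63 ± 0.12 (adjusted p = 0.00148, edgeR). Actn3 (chr19:4861216-4877909), the alpha-actinin of fast fibres, stood at 1054 and 1474 CPM in Ctr 1 and at 1216 and 1795 CPM in Ctr 2 (log2 -0.52 ± 0.11, adjusted p = 0.00832, edgeR). In Ctr 2 its last sections (1318 to 1907 CPM) all lay above its first sections (942 to 1204 CPM), while in Ctr 1 the ranges overlapped. Casq1 (chr1:172209894-172219868), the calcium store protein of fast fibres, stood at 1498 and 1940 CPM in Ctr 1 and at 2081 and 3130 CPM in Ctr 2 (log2 -0.48 ± 0.12, adjusted p = 0.0248, edgeR). Its sections likewise separated in Ctr 2 and overlapped in Ctr 1. Myh4 had a log2 difference of -0.30 (adjusted p = 0.313, edgeR). Casq1 was also the only call among 9 tested genes of calcium release and pumping, whose median was -0.117.

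**Figure D3:**
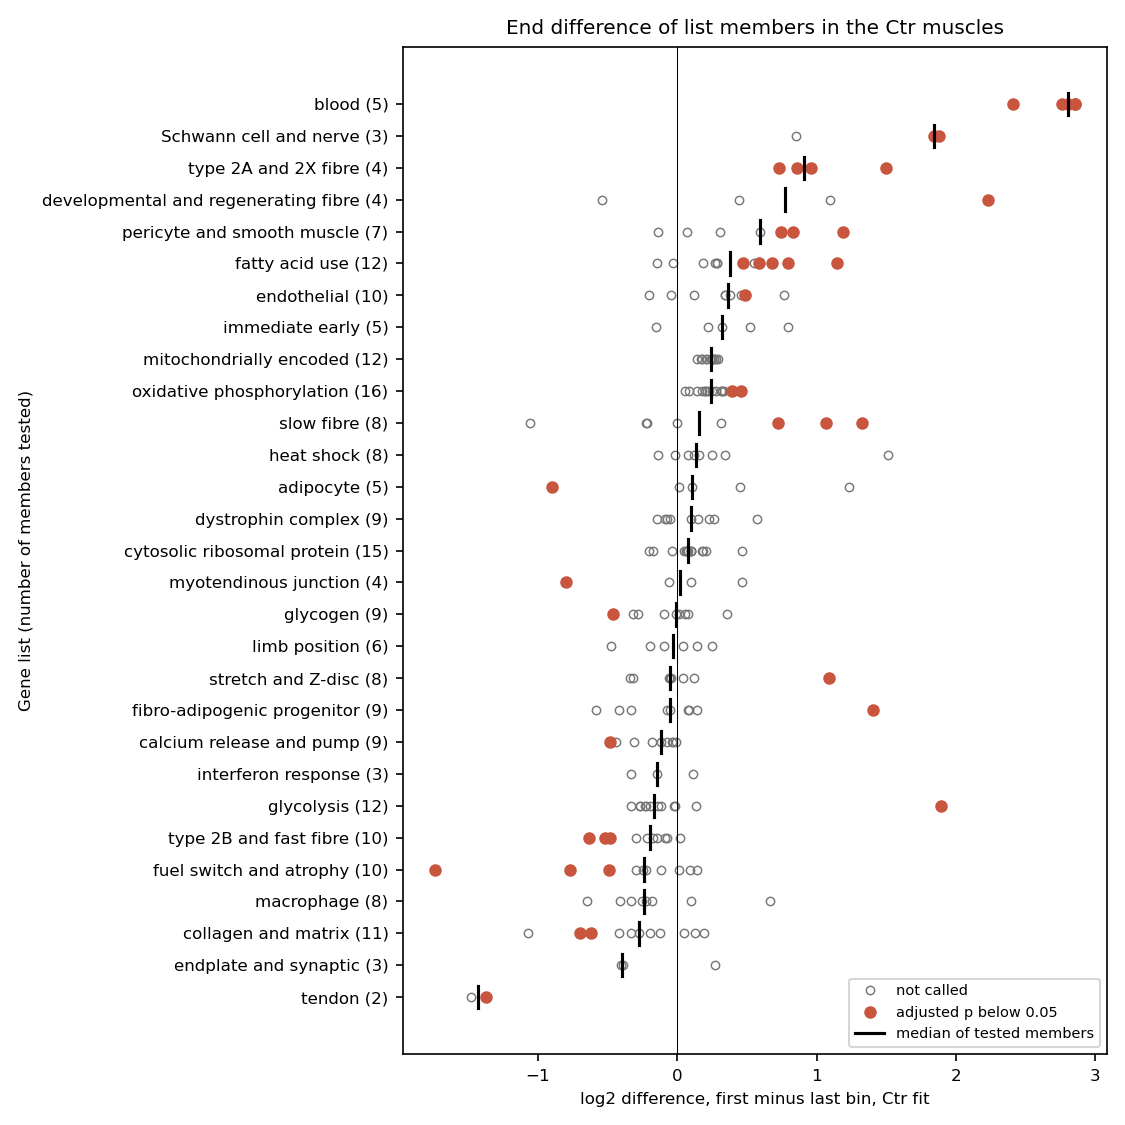
Log2 difference (x axis, first minus last bin, Ctr fit) of each tested member of the 29 gene lists that had one, with the number tested in brackets. Filled red points had an adjusted p below 0.05, open points did not pass, and black bars are medians, from 2.8 for blood to -1.43 for the 2 tested tendon genes.

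Of 12 tested genes of fatty acid use, 5 were called higher there and none in the last sections, with a median of 0.378. Lpl (chr8:68880491-68907448), lipoprotein lipase, which frees fatty acids from circulating lipoproteins, stood at 2333 and 1016 CPM in Ctr 1 and at 1976 and 927 CPM in Ctr 2, first against last. In Ctr 1 all its first sections (1856 to 2806 CPM) exceeded all its last sections (850 to 1639 CPM), and in Ctr 2 the ranges overlapped. The log2 difference was 1.15 ± 0.12 (adjusted p = 3.42e-07, edgeR), and 0.62 between bins 2 and 4 (adjusted p = 0.000597, edgeR). Fabp3 (chr4:130308595-130315463), a fatty acid carrier of the cytosol, stood at 562 and 309.5 CPM in Ctr 1 and at 338 and 205 CPM in Ctr 2 (log2 0.80 ± 0.10, adjusted p = 1.13e-05, edgeR). Cd36, a fatty acid transporter, Acadl, a dehydrogenase of beta-oxidation, and Hadhb, a subunit of the trifunctional protein, completed the calls with log2 differences of 0.68, 0.59 and 0.47. Cpt1b, which admits long-chain fatty acids to mitochondria, had a log2 difference of -0.03 (adjusted p = 0.984, edgeR).

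Nuclear genes of oxidative phosphorylation were positive in both muscles for 15 of 16 tested, against 2337 of all 7773 genes. Of the 16, 2 were called, and their list had a median of 0.24. Cox8b (chr7:140898945-140900446), the muscle form of a cytochrome oxidase subunit, stood at 392.5 and 327 CPM in Ctr 1 and at 433 and 274 CPM in Ctr 2 (log2 0.45 ± 0.10, adjusted p = 0.0138, edgeR). Sdhb (chr4:140961203-140979193), the iron-sulphur subunit of succinate dehydrogenase, stood at 286 and 206 CPM in Ctr 1 and at 325 and 263 CPM in Ctr 2 (log2 0.39 ± 0.10, adjusted p = 0.0287, edgeR). None of the 12 mitochondrially encoded protein genes was called (median 0.242). The most highly expressed, mt-Cytb, stood at 82410 and 63180 CPM in Ctr 1 and at 62610 and 64350 CPM in Ctr 2, so the muscles went opposite ways (adjusted p = 0.697, edgeR).

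Of 12 tested glycolytic genes, 1 was called, and it was higher in the first sections. The list's median was -0.168, and 8 of the 12 were negative in both muscles, against 2178 of all 7773 genes. Ldhb (chr6:142490249-142507957), the heart form of lactate dehydrogenase, stood at 41.05 and 11.05 CPM in Ctr 1 and at 45.2 and 12.1 CPM in Ctr 2, first against last. The log2 difference was 1.89 ± 0.20 (adjusted p = 4.85e-07, edgeR), with 1.88 and 1.89 in the 2 muscles. Ldha, the muscle form, had a log2 difference of -0.27 (adjusted p = 0.355, edgeR). Among 9 tested glycogen genes, Phka1 (chrX:102513975-102644246), the muscle regulatory subunit of phosphorylase kinase, was called higher in the last sections and 8 did not pass (median -0.0128). Phka1 stood at 327 and 421 CPM in Ctr 1 and at 280 and 416.5 CPM in Ctr 2 (log2 -0.46 ± 0.10, adjusted p = 0.00747, edgeR).

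Nerve markers were sparse. Of the 10 Schwann cell and nerve genes, 3 were tested and 2 were called higher in the first sections (median 1.84). Mbp, myelin basic protein, stood at 20.1 and 6.27 CPM in Ctr 1 and at 32.04 and 7.94 CPM in Ctr 2 (log2 1.84 ± 0.25, adjusted p = 3.34e-05, edgeR). Over sections, Mbp ran from 0 to 57.97 CPM (median 14.3) at the first and from 0 to 10.6 CPM (median 8.16) at the last end of Ctr 1, and from 0 to 69.1 CPM (median 26.9) and from 0 to 13.9 CPM (median 7.72) in Ctr 2, so the ends overlapped. The end bins were not where the list was highest. It summed to 45.1, 103, 71.5, 40.1 and 15.04 CPM over bins 1 to 5 of Ctr 1 and to 54.3, 136, 84.8, 54.8 and 20.02 CPM in Ctr 2, with bin 2 the peak of both. For Mbp, bin 2 exceeded bin 4 by 1.502 (adjusted p = 3.12e-07, edgeR).

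**Figure D4:**
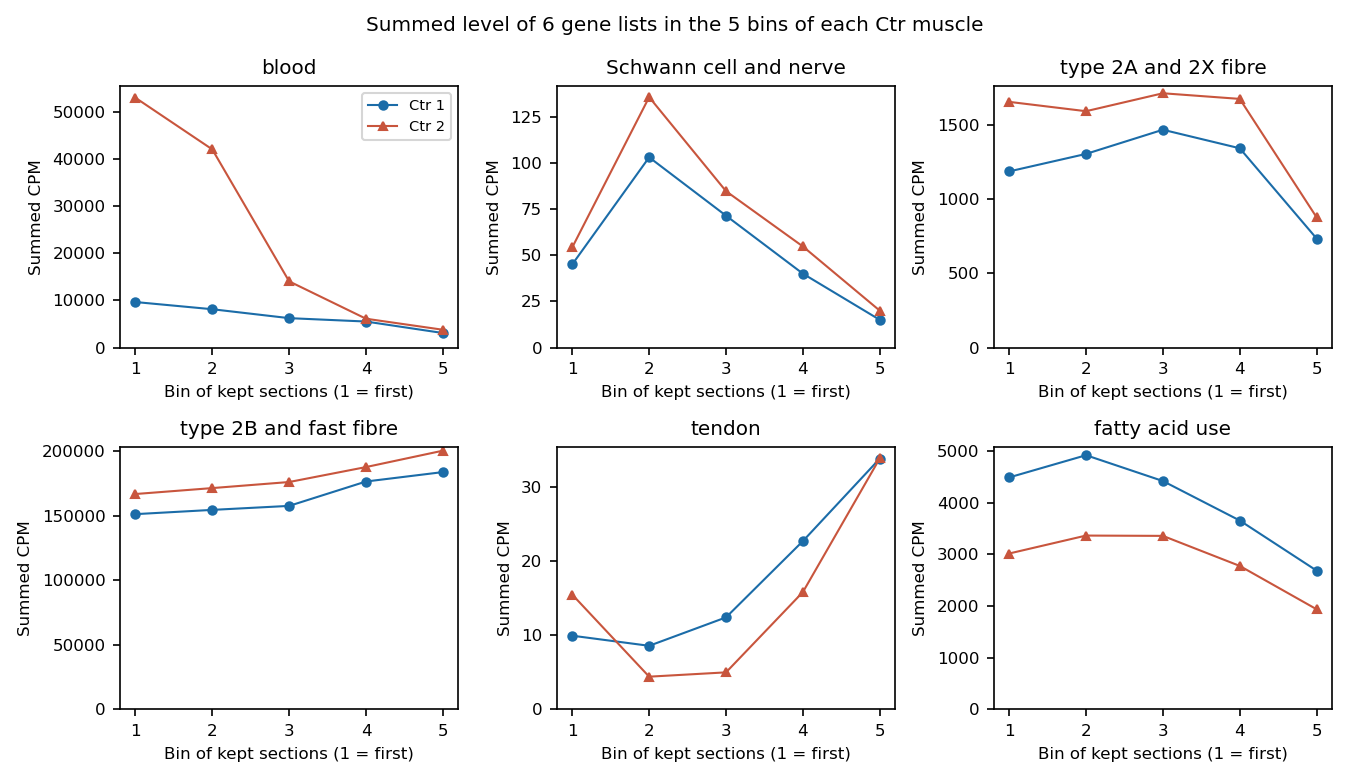
Summed level of 6 gene lists (y axis, CPM without further scaling) over the 5 bins of each Ctr muscle (x axis, bin 1 first). The Schwann cell and nerve list peaked in bin 2 at 103 and 136 CPM, the list of type 2A and 2X fibres dropped in bin 5, and the tendon list was highest in bin 5 at 33.9 CPM in both muscles.

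Of 7 tested genes of pericytes and smooth muscle, 3 were called higher in the first sections (median 0.593). Acta2 (chr19:34241090-34255590), smooth muscle actin, stood at 351 and 197 CPM in Ctr 1 and at 653 and 369.5 CPM in Ctr 2 (log2 0.83 ± 0.10, adjusted p = 4.28e-06, edgeR). Single sections were uneven: the first bin ran from 69.6 to 940 CPM in Ctr 1 and from 310 to 1720 CPM in Ctr 2, and only 2 and 3 of those sections lay above every last section. Tagln (chr9:45929619-45936058), a smooth muscle actin-binding protein, stood at 22.5 and 11.3 CPM in Ctr 1 and at 16.96 and 5.52 CPM in Ctr 2 (log2 1.18 ± 0.25, adjusted p = 0.00693, edgeR). Myh11, smooth muscle myosin, had a log2 difference of 0.75 (adjusted p = 0.0323, edgeR), and the pericyte gene Rgs5 had 0.07 (adjusted p = 0.878, edgeR). Of 10 endothelial genes, Kdr (chr5:75932827-75978458), the main receptor for vascular endothelial growth factor, was the only call. It stood at 136 and 98.6 CPM in Ctr 1 and at 224 and 158 CPM in Ctr 2 (log2 0.48 ± 0.10, adjusted p = 0.00557, edgeR). The endothelial list's median was 0.36, and 7 of the 10 were positive in both muscles, against 2337 of all 7773 genes. The summed endothelial list stood at 471 and 415 CPM in Ctr 1 and at 473 and 377 CPM in Ctr 2, first against last. The summed pericyte and smooth muscle list stood at 1557 and 1646 CPM in Ctr 1 and at 1525 and 1363 CPM in Ctr 2, so the muscles went opposite ways. Its largest member, Des, is also made by muscle fibres and stood at 1011 and 1151 CPM in Ctr 1 and at 822 and 872 CPM in Ctr 2. The sum therefore does not measure the vessel wall alone. The part of blood in the called vessel genes was not tested.

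Pi16 (chr17:29317680-29330593), a peptidase inhibitor that marks a subset of fibroblasts, stood at 20.97 and 7.47 CPM in Ctr 1 and at 52.1 and 20.4 CPM in Ctr 2, first against last. Its log2 difference was 1.40 ± 0.20 (adjusted p = 9.4e-05, edgeR). It was the only call among 9 tested genes of fibro-adipogenic progenitors, the connective tissue cells of muscle, whose median was -0.0524. Their most widely used marker, Pdgfra, had 8, 21, 4 and 9 counts in the 4 sums and was not tested. Ankrd2 (chr19:42036000-42045110), a stretch-responsive ankyrin repeat protein, was likewise the only call among 8 tested genes of stretch and the Z-disc (median -0.0514). It stood at 55.1 and 30.2 CPM in Ctr 1 and at 38.95 and 13.5 CPM in Ctr 2 (log2 1.09 ± 0.18, adjusted p = 0.00057, edgeR).

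Towards the last end, Mss51 (chr14:20482867-20496901), a protein of muscle mitochondria, had the largest fold among called genes with a mean of at least 20 CPM and the same sign in both muscles. It stood at 20.7 CPM in the first and 77.7 CPM in the last bin of Ctr 1, and at 21.4 and 57.97 CPM in Ctr 2. Over sections it ran from 0 to 85.7 CPM (median 19.3) at the first and from 49.8 to 188 CPM (median 80.3) at the last end of Ctr 1. In Ctr 2 it ran from 0 to 69.1 CPM (median 19.8) and from 0 to 192.5 CPM (median 50.2). The ends overlapped in both muscles. The highest value was that of the last kept section in each, and later sections fell below the cutoff. That section had the lowest total of its bin, at 85091 counts in Ctr 1 and 57140 in Ctr 2, so its level rests on few reads. The log2 difference was -1.74 ± 0.17, or 3.34-fold higher in the last sections (adjusted p = 1.38e-07, edgeR). The level was lowest in bin 3, at 6.15 CPM in Ctr 1 and 3.60 CPM in Ctr 2, so both ends stood above the middle. Between bins 2 and 4 the log2 difference was -0.50 (adjusted p = 0.635, edgeR).

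Mss51 belonged to the list of fuel switch and atrophy genes, of which 3 of 10 tested were called higher in the last sections (median -0.236). Mt2 (chr8:94172664-94173568), a metal-binding metallothionein, stood at 137.5 and 244 CPM in Ctr 1 but at 6.28 and 4.49 CPM in Ctr 2. Its call (log2 -0.77 ± 0.14, adjusted p = 0.00118, edgeR) thus rests on Ctr 1, and the log2 differences were -0.83 and 0.47. Fbxo32, an atrophy-linked ubiquitin ligase, had a log2 difference of -0.49 (adjusted p = 0.0236, edgeR), with 1071 and 1288 CPM in Ctr 1 and 178 and 308 CPM in Ctr 2. Its partner in atrophy, Trim63, had -0.25 (adjusted p = 0.343, edgeR).

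Car3 (chr3:14863512-14872523), carbonic anhydrase 3, stood at 2056 CPM in the first and 3598 CPM in the last bin of Ctr 1, and at 1678 and 3344 CPM in Ctr 2. In Ctr 2 every last section (2873 to 3615 CPM) exceeded every first section (1293 to 2383 CPM), while in Ctr 1 the ranges overlapped. Its fitted log2 difference was -0.90 ± 0.12 (adjusted p = 3.34e-05, edgeR), and -0.53 between bins 2 and 4 (adjusted p = 0.00575, edgeR). Car3 is on the adipocyte list but is also made by muscle fibres, and the part of either in its difference was not tested. It was the only call among 5 tested genes of that list, whose median was 0.106. Plin4, Scd1 and Fasn had log2 differences of 0.11, 0.45 and 0.008, and none of them passed. Lep had 0 counts in all 4 sums, Adipoq had 6, 0, 3 and 1 counts, and Cfd stood at 8.09 and 1.20 CPM in Ctr 1 and at 9.42 and 7.25 CPM in Ctr 2 (adjusted p = 0.137, edgeR).

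Tmem100 (chr11:90030348-90036508), a small membrane protein known from vessels, stood at 130 and 276 CPM in Ctr 1 and at 62.2 and 173 CPM in Ctr 2, first against last. Its sections overlapped in Ctr 1 and separated in Ctr 2, where the last sections began at 99.1 CPM and the first ended at 79.1 CPM. The fit gave a log2 difference of -1.23 ± 0.11 (adjusted p = 9.04e-08, edgeR), and -0.50 between bins 2 and 4 (adjusted p = 0.0167, edgeR). Ogt (chrX:101640060-101684351), which attaches N-acetylglucosamine to proteins, stood at 11.7 and 37.4 CPM in Ctr 1 and at 11.9 and 23.1 CPM in Ctr 2 (log2 -1.43 ± 0.22, adjusted p = 0.000264, edgeR). Its last sections were uneven, with medians of 18.8 and 15.3 CPM and highest values of 152.5 and 90.7 CPM.

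A further 6 genes completed the 10 called genes with the largest fold towards the last end at a mean of at least 20 CPM and the same sign in both muscles, all with fitted differences between -0.80 and -0.90 and overlapping sections. Timp2 (chr11:118301069-118355740), an inhibitor of matrix proteases, had -0.90 ± 0.21 (adjusted p = 0.0153, edgeR), and turned to 0.20 between bins 2 and 4. Ighm (chr12:113418558-113422730), the constant region of immunoglobulin M of B cells, had -0.89 ± 0.17 (adjusted p = 0.0017, edgeR), with 21.6 and 39.7 CPM in Ctr 1 and 31.4 and 59 CPM in Ctr 2. Odc1 (chr12:17544794-17551505), which starts polyamine synthesis, had -0.84 ± 0.15 (adjusted p = 0.00169, edgeR), with 41.3 and 66.03 CPM in Ctr 1 and 24.5 and 54.5 CPM in Ctr 2. Slc37a4 (chr9:44396852-44402968), the glucose 6-phosphate carrier of the endoplasmic reticulum, had -0.81 ± 0.17 (adjusted p = 0.00454, edgeR). Ttll7 (chr3:146852367-146984009), a tubulin-modifying ligase, had -0.80 ± 0.13 (adjusted p = 0.000585, edgeR), and Mllt11 (chr3:95219135-95232171) had -0.83 ± 0.16 (adjusted p = 0.00336, edgeR).

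Collagen and junction genes that passed were higher at the last end. Of 11 tested collagen and matrix genes, 2 were called higher in the last sections (median -0.272). Col6a2 (chr10:76595762-76623630), a chain of the collagen that ties fibres to their surroundings, stood at 16.8 and 25.1 CPM in Ctr 1 and at 37.7 and 65.6 CPM in Ctr 2 (log2 -0.70 ± 0.17, adjusted p = 0.0258, edgeR). Col1a1 (chr11:94936224-94953042), a chain of the main collagen of tendon, stood at 14.7 and 19.7 CPM in Ctr 1 and at 53.4 and 87.99 CPM in Ctr 2 (log2 -0.62 ± 0.16, adjusted p = 0.0443, edgeR). Thbs4 (chr13:92751590-92794818), a thrombospondin of the myotendinous junction, was the only call among 4 tested genes of that list (median 0.0195). It stood at 23.4 and 54.1 CPM in Ctr 1 and at 46.5 and 59 CPM in Ctr 2 (log2 -0.80 ± 0.17, adjusted p = 0.00867, edgeR).

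Tendon markers were sparse at both ends. Of 10, 2 were tested, and Prg4 (chr1:150449412-150466165), lubricin, was called at 4.20 and 12.8 CPM in Ctr 1 and 3.14 and 4.83 CPM in Ctr 2 (log2 -1.37 ± 0.36, adjusted p = 0.0406, edgeR). The 10 genes summed to 9.92 and 15.5 CPM in the first and 33.9 and 33.9 CPM in the last bins, and no marker was at 0 in all 4 sums. They were lowest in bin 2, at 8.55 CPM in Ctr 1 and 4.38 CPM in Ctr 2. The part of tendon in the collagen and Thbs4 differences was not tested. Of 8 markers of cartilage, bone and skin none was tested and 5 were at 0 counts in all 4 sums.

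Besides the mitochondrially encoded genes, 8 lists had tested members and no call. Of these, 6 are given by their median and most highly expressed member and 2 by their median alone. They were endplate (3 tested, median -0.394, Prkag3 at -0.40) and macrophage genes (8 tested, median -0.241, C1qb at -0.41). Immediate early (5 tested, median 0.317, Jun at -0.15) and heat shock genes (8 tested, median 0.136, Cryab at 0.34) were 2 more. Limb position (6 tested, median -0.0304, Hoxc10 at 0.04) and interferon response genes (3 tested, median -0.149, B2m at 0.11) followed. The others were dystrophin complex (9 tested, median 0.0998) and ribosomal protein genes (15 tested, median 0.0757). Jun, Hoxc10 and B2m had the opposite sign to the median of their list. None of the log2 differences of the 6 named genes passed, with adjusted p from 0.0968 for Cryab to 0.946 for Hoxc10 (edgeR). No satellite cell marker was tested.

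WT and DMD muscles, cut the same way, gave values that the choice of the Ctr genes did not use. By the estimate of each group, 178 of the 186 genes (95.7%) had the Ctr direction in WT, against 58.4% of all 7764 genes, and 140 (75.3%) had it in DMD, against 52.5%. Muscle by muscle, 161 (86.6%) had the Ctr direction in both WT muscles, against 2581 of 7764 genes overall (33.2%). In all 3 DMD muscles, a stricter criterion than both of 2, 52 of the 186 (28%) had it, against 1052 of 7764 (13.5%). Testing the difference of end effects called 0 of 9670 genes (0%) for Ctr minus WT by edgeR, with 239 at an unadjusted p below 0.05, and 0 by DESeq2, with 43. For Ctr minus DMD it called 0 of 9670 (0%) by edgeR, with 420 at an unadjusted p below 0.05, and 0 by DESeq2, with 78. Each of these counts at an unadjusted p is below a 0.05 share of the genes, the share expected where no gene differs. Both comparisons use the same Ctr muscles. In simulated data they recovered 1.49% (Ctr minus WT) and 7.46% (Ctr minus DMD) of 2-fold differences, so 0 calls do not show that end effects are equal.

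The smallest adjusted p for Ctr minus DMD was 0.239 (edgeR), shared by Actc1, Tent5c, Mss51, Slfn2 and Mbp. Actc1 had log2 differences of 2.32 and 2.102 in the Ctr, 2.19 and 3.31 in the WT and 0.56, -0.03 and 1.11 in the DMD muscles, so the DMD values lay below all others. The difference between the Ctr and DMD effects was 1.67 ± 0.34 and that between Ctr and WT -0.44 ± 0.40. Mss51 had -1.90 and -1.44 in the Ctr, -1.65 and -1.32 in the WT and 0.38, 0.03 and -0.70 in the DMD muscles, with a Ctr minus DMD difference of -1.63 ± 0.32. Tmem100 had -1.08 and -1.48 in the Ctr, -1.36 and -1.33 in the WT and -0.25, -0.34 and -0.41 in the DMD muscles. Car3 had -0.80 and -1.004 in the Ctr, -1.06 and -0.86 in the WT and 0.97, 0.06 and -0.09 in the DMD muscles. These 4 genes were singled out after their values were seen, and no Ctr minus DMD difference passed in the main fit. Without a count filter, Actc1 and Mss51 were among 19 calls, and Tmem100 and Car3 were not. How many of all genes have DMD values apart from those of the other muscles was not counted.

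For Myh2 and Hba-a1 the muscles of the groups overlapped. Myh2 had 1.04 and 1.97 in the Ctr, 0.89 and 1.28 in the WT and 2.42, 1.09 and 0.53 in the DMD muscles. Hba-a1 had 1.74 and 3.96 in the Ctr, 2.54 and 2.04 in the WT and 3.14, 0.53 and -0.32 in the DMD muscles, so the DMD muscles alone spanned the values of both WT muscles. Without DMD 1, Ctr minus DMD called 11 genes, among them all 4 globin genes, Actc1, Mss51, Car3 and Casq2.

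**Figure D5:**
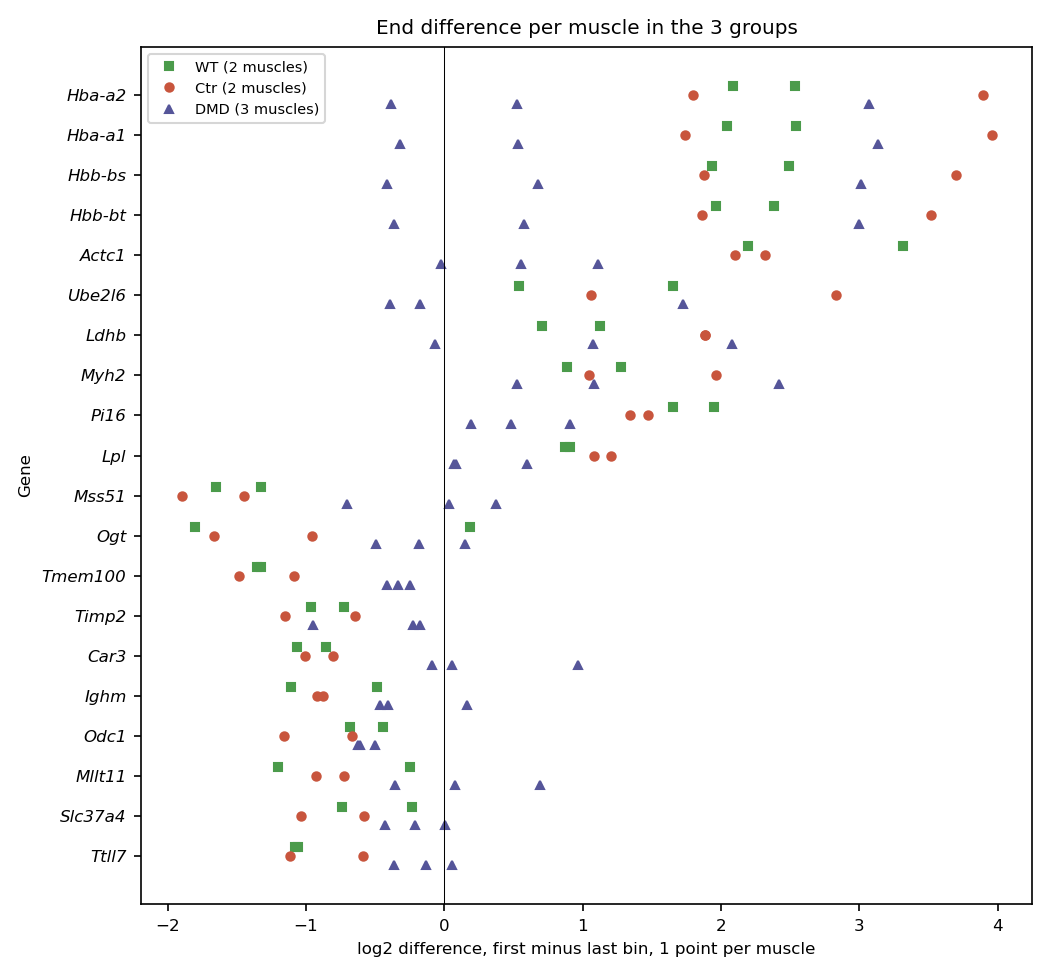
Log2 difference (x axis, first minus last bin) in each of the 7 muscles for 20 genes, the 10 per direction with the largest fold in Ctr among called genes with a mean of at least 20 CPM and the same sign in both Ctr muscles. Red circles are the 2 Ctr, green squares the 2 WT and blue-violet triangles the 3 DMD muscles. The genes were chosen on the Ctr values. For Actc1, Mss51, Tmem100 and Car3 all 3 triangles lie nearer to 0 than the other points, apart from 1 triangle for Car3 at 0.97.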

How the data were processed

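RNA of single cryosections was captured by its polyA tail and barcoded per section, per the labels' protocols. The deposited expected counts are reads per gene and section, counted by the authors with featureCounts 2.0.1 with multi-mapped and multi-overlapping reads split into fractions on 1 strand, per the file headers. Of the Ctr values above 0, 21.1% and 20.6% were not whole. The submitters' processing notes name STAR 2.7.7a and the build GRCm38. The 53083 genes shared by all tables were used.

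Sections were kept, ordered and binned as described above, summed per muscle and bin, and the sums rounded to whole numbers. Genes passing filterByExpr were tested in edgeR 4.0.16 (R 4.3.3) with TMM scaling, the quasi-likelihood F test, Benjamini-Hochberg adjustment at 0.05 and the muscle as a block, since both ends come from the same muscle. The log2 difference is first minus last, and its approximate standard error is its size divided by the square root of F. Differences between groups were interactions in 1 fit over 7 muscles. Alternatives included DESeq2 1.42.0, other scaling, filters, bins and section cutoffs, thinning, no block, and leaving out each muscle. The fits were tested on simulated data. The Ctr fit recovered 44.8% of 2-fold and 83.3% of 4-fold end differences. For 2-fold and 4-fold differences, Ctr minus WT recovered 1.49% and 37.9%, and Ctr minus DMD 7.46% and 60.6%.

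In each direction, the called genes averaging 20 CPM or more with 1 sign in both muscles were ranked by fold, and the 10 at the top were named, together with up to 2 called members per list, or the most highly expressed member of a list without a call. Some genes that this rule names are not reported here. Other list members and genes named were chosen after their values were seen. The comparison and the lists were chosen with earlier results of these data known. Values of genes with near-identical copies, or with another gene on the same strand, are uncertain because reads were split. Bin totals ranged from 1745203 to 3343498 counts in Ctr, and the p-values rest on 2 muscles.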

Additional observations from a re-analysis of the deposited data

How the results depend on the processing

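The 186 calls rest on 2 muscles. DESeq2 called 46 of 389 genes with an adjusted p, sections thinned to 1 total per muscle gave 44, the fit over all 7 muscles 9, and bin 2 against bin 4 gave 25. Reversing the section order of Ctr 2 gave 3 calls. Only 1 of them was among the 186, namely Alas2, with its sign turned to -1.55. Both ends of a muscle are paired by design, and with no replicate block edgeR called 0 genes, with 188 at an unadjusted p below 0.05. Leaving out 1 Ctr muscle in the fit over all muscles, where the lone muscle is assumed to vary like the others, left 0 to 1 calls: Tent5c without Ctr 1, and none by edgeR without Ctr 2, with 232 at an unadjusted p below 0.05. Both counts at an unadjusted p below 0.05 fell short of a 0.05 share of the genes tested, the share expected where no gene differs. The remaining settings gave 126 to 260 calls, including RLE scaling with 222, which kept all 186. Without a count filter, 2 genes were called for Ctr minus WT and 19 for Ctr minus DMD, the latter including Actc1, Mss51, Mbp and the globin genes. Leaving out 1 muscle gave 0 to 11 calls for Ctr minus DMD, with 11 without DMD 1 and 2 without DMD 2. Bin 2 against bin 4 turned Timp2 to 0.20, Casq2 to -0.037, Myoz2 to -0.014, C1qb to 0.17 and Hoxc10 to -0.29. Without Ctr 1, mt-Cytb turned to -0.046, Mt2 to 0.48, Hoxc10 to -0.11 and B2m to -0.0945. Jun turned to 0.43 with thinned sections and 0.0598 with thinned sums. Hoxc10 also turned to -0.0897 with narrower end bins, -0.10 with wider ones, -0.0179 with sections of at least 50% of the median and -0.10 as a trend. The cause of these changes was not tested. Depth limits genes of a few CPM, where many sections hold no count.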

Other observations

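The genes of the next paragraphs were called in the comparison of the Ctr ends but were on no list or outside the naming rule, and were chosen after their values were seen. Mb, the oxygen store myoglobin, stood at 1965 and 1216 CPM in Ctr 1 and at 1779 and 993 CPM in Ctr 2, first against last (log2 0.77 ± 0.11, adjusted p = 0.00017, edgeR). Ckmt2, the mitochondrial creatine kinase of muscle, stood at 1060 and 650 CPM in Ctr 1 and at 1128 and 655 CPM in Ctr 2 (log2 0.74 ± 0.11, adjusted p = 9.4e-05, edgeR). Mdh1, a malate dehydrogenase, had a log2 difference of 0.52 and Oxct1, which activates ketone bodies as fuel, 0.58. Of the ribosomal RNAs of mitochondria, mt-Rnr1 stood at 12290 and 8396 CPM in Ctr 1 and at 19990 and 12510 CPM in Ctr 2 (log2 0.61 ± 0.13, adjusted p = 0.00556, edgeR), and mt-Rnr2 had 0.54 (adjusted p = 0.022, edgeR). With 5 mitochondrial transfer RNA genes these made 7 calls, while no mitochondrially encoded protein gene passed.

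Tent5c, a poly(A) polymerase, was at 18 and 2 counts in Ctr 1 and 42 and 2 counts in Ctr 2 (log2 4.45 ± 0.49, adjusted p = 1.59e-06, edgeR). Slc25a37, which brings iron into mitochondria for haem synthesis, stood at 17.1 and 10.2 CPM in Ctr 1 and at 34.5 and 7.59 CPM in Ctr 2 (adjusted p = 0.00275, edgeR). Towards the last end, Npr3, the clearance receptor of natriuretic peptides, rose from 1.80 to 10.5 CPM in Ctr 1 and from 1.89 to 7.59 CPM in Ctr 2 (log2 -2.35 ± 0.43, adjusted p = 0.00148, edgeR). Beside Odc1, Amd1 and Smox of the polyamine pathway were called at -0.57 (adjusted p = 0.00121, edgeR) and -0.53 (adjusted p = 0.00327, edgeR). Reads of Amd1 may be shared with its near copy Amd2, which was called at -0.53.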
